A study of Mus musculus with 2 samples.

Results

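A set of 10 imprinted genes that lie outside the Dlk1-Dio3 region was followed through the nuclei of mouse tibialis anterior (TA) muscle. They were taken by their symbols from the gene rows of both libraries, and all 10 were found among the 32285 rows: Igf2r, Airn, Igf2, H19, Peg3, Grb10, Plagl1, Kcnq1ot1, Asb4 and Cdkn1c. Nuclear RNA was read from single nuclei in droplets, each RNA molecule being counted once by its unique molecular identifier (UMI). The M-Bcl6 KO mice carried the Myf6-Cre transgene, which is active in skeletal muscle fibres, and floxed Bcl6 on both alleles (Bcl6 fl/fl). The M-Bcl6 WT controls were littermates with the same Myf6-Cre transgene and unfloxed Bcl6 (Bcl6 wt/wt), on a C57BL/6 background, so that both groups carried Cre. Nuclei of both TA muscles from 2 males for each genotype, aged 6 weeks, were sorted by 7-AAD, a DNA dye, and went into a single library, so each genotype is 1 sample, no replicate spread exists and no test between genotypes was made. All intervals are 95% intervals and cover counting error only.

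Imprinted genes are read mainly from the copy inherited from 1 parent, the other copy being silenced through DNA methylation set in the germ line or through a long non-coding RNA. Many of them act on growth, and several sit on the insulin-like growth factor (IGF) axis: Igf2 encodes a growth factor, Igf2r a receptor that carries it to lysosomes for breakdown, and Grb10 an adaptor that binds the insulin and IGF1 receptors and dampens their signal. Airn and Kcnq1ot1 are long non-coding RNAs of the paternal copy that run antisense through Igf2r and Kcnq1 and silence neighbours, and H19 is a maternally read non-coding RNA next to Igf2. Peg3 and Plagl1 encode zinc finger proteins, Cdkn1c the cell cycle inhibitor p57, and Asb4 a substrate-binding subunit of a cullin ubiquitin ligase. The counts do not tell the parental copies apart.

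There were 3798 barcodes with 11974138 UMIs in the WT-labelled library and 4096 with 12026013 in the KO-labelled one, of which 3674 and 3944 nuclei were kept. Bcl6 counts in myonuclei were 1475 (WT-labelled) and 4832 (KO-labelled) UMIs (167 and 502 CPM, the counts scaled to the summed UMIs of a group of nuclei). No loss of whole-gene Bcl6 counts was thus seen under the KO label. Such counts do not hold the deleted exons apart, so they cannot show whether the deletion is present. The libraries are named by their labels, with the WT-labelled value first where 2 are given. Meg3 of the Dlk1-Dio3 region stood at 387 and 20923 CPM in the same nuclei. Clusters were made without the 10 genes and named from fixed markers. Of the kept nuclei, 2408 and 3088 were myonuclei. They were split by the myosin heavy chain gene with most UMIs into nuclei with main gene Myh4 (701 and 612), Myh1 (1156 and 1176), Myh2 (236 and 482) or Myh7 (2 and 19) and nuclei without a main gene (313 and 799). Non-muscle classes were fibro-adipogenic progenitor (FAP)-like (483 and 331 nuclei), endothelial-like (223 and 132), muscle stem cell (MuSC)-like (187 and 124), pericyte or smooth muscle-like (158 and 116), macrophage-like (100 and 57) and tenocyte-like (60 and 56). Each class had all of its own markers detected, but the classes were named from these markers. Summed myonuclei also held every FAP, endothelial, MuSC and macrophage marker, so detection alone does not identify a class.

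The promoters of 4 members are shown because the results turn on these loci: those of the antisense RNAs Airn and Kcnq1ot1, that of Peg3, and that of Grb10. Each run is 300 bases from RefSeq (GRCm38.p6), 250 before and 50 after the start, 5′ to 3′ on the gene's own strand. CpG dinucleotides are in capitals, since CpG methylation can differ between the parental copies at imprinted loci. Methylation was not measured, so the capitals do not show which copy, if either, is methylated in these runs.
Airn, chr17:12741061-12741360, plus strand: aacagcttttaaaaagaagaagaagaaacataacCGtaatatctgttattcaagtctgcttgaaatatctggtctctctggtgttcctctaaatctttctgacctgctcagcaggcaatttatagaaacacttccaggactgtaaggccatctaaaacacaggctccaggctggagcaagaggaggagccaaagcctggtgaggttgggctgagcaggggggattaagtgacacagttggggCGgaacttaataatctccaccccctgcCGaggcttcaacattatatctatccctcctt
Kcnq1ot1, chr7:143296498-143296797, minus strand: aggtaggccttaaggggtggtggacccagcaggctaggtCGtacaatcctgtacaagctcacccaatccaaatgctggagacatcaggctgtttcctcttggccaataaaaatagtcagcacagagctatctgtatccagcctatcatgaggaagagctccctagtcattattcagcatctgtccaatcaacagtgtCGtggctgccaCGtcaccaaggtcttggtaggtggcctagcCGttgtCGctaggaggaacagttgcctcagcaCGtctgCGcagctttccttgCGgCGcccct
Peg3, chr7:6730370-6730669, minus strand: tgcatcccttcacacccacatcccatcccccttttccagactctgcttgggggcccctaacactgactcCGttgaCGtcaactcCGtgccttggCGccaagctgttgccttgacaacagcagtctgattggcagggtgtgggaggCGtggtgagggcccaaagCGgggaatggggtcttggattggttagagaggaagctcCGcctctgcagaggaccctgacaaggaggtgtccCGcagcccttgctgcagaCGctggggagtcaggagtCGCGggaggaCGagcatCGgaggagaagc
Grb10, chr11:12037371-12037670, minus strand: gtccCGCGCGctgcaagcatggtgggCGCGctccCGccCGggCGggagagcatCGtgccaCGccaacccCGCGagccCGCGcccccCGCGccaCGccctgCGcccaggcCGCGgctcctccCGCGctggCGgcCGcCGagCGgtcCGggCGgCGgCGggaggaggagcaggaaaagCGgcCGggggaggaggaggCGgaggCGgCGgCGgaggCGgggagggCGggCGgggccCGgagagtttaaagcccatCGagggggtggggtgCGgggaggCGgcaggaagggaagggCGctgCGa
The Grb10 run held 45 CpGs and the Peg3 run 13, whereas Kcnq1ot1 held 9 and Airn 3, against a median of 7 over 32851 promoters. Airn starts inside Igf2r and Kcnq1ot1 inside Kcnq1, neither of them in an exon of the host. The annotated starts of Peg3 and Usp29, which point away from each other, are 147 bases apart. Promoters of 8 of the 10 genes were in the table, with 13 entries. The letters TTCNNNGAA, a core that BCL6 and STAT proteins bind, were in 0 of the 13 entries on either strand and in 8.30% of all promoters. The narrower TTCCNNGAA, every match of which is also a match of the first, was in 0 of the 13 and in 4.81% of all.

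In GRCm38, Igf2r (ENSMUSG00000023830) lies at chr17:12682406-12769664 on the minus strand and Airn (ENSMUSG00000078247) at chr17:12741311-12860136 on the plus strand, with 28.4 kb shared. Kcnq1ot1 (ENSMUSG00000101609) at chr7:143203458-143296549 is covered by Kcnq1 over its whole 93.1 kb, on the minus strand. On chromosome 7, also on the minus strand, are H19 at chr7:142575529-142578143, Igf2 at chr7:142650766-142666816, Cdkn1c at chr7:143458339-143461050 and, far from these, Peg3 at chr7:6703892-6730431. Grb10 lies at chr11:11930508-12038683 on the minus strand, and Plagl1 at chr10:13060504-13131694 and Asb4 at chr6:5383386-5433022 on the plus strand. Whether counting used the strand is not stated, so reads of these overlapping pairs, of Airn with Mas1, and of Igf2 with its antisense gene Igf2os, cannot be told apart with certainty.

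Airn and Igf2r differed little across fibre types and stood several times higher in FAP-, MuSC- and pericyte or smooth muscle-like nuclei. In nuclei with main gene Myh4, Myh1 and Myh2, Airn was at 584, 613 and 642 CPM in the WT-labelled library and at 615, 620.5 and 554 CPM in the KO-labelled library. Igf2r was at 57.6, 63.3 and 49.7 CPM and at 59.5, 63.4 and 65.8 CPM. For Igf2r, none of the 6 fibre type ratios within a library had an interval that left out 0, and for Airn the 2 that did, both with Myh2 as the lower group and both in the KO-labelled library, were log2 ratios of 0.15 and 0.16. In FAP-like nuclei Airn was at 2744 CPM (2647 to 2844) against 1965 (1864 to 2071). In MuSC-like nuclei it was at 2523 and 3069.5 CPM, and in pericyte or smooth muscle-like nuclei at 2205 and 2117 CPM. Igf2r took the same places, with 317 and 239 CPM in FAP-like, 265 and 423 in MuSC-like and 237 and 261 in pericyte or smooth muscle-like nuclei. Endothelial-like nuclei were lower, with Airn at 1152 and 1022 CPM and Igf2r at 140.2 and 150.2, and macrophage-like nuclei were lowest for both genes in both libraries, with Airn at 100.2 and 290.0 CPM. Within a library, the highest and second highest class of either gene had separate intervals in the KO-labelled library, where MuSC-like nuclei led, and not in the WT-labelled library, where FAP-like nuclei led. The KO-labelled lead of Airn depended on how nuclei were classed. With each nucleus classed by its own marker UMIs, KO-labelled Airn was at 2223 CPM in both MuSC-like and pericyte or smooth muscle-like nuclei. Igf2r was then at 325 and 271 CPM.

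Airn took most of the UMIs that fell on either gene. In myonuclei it took 91.1% (90.3 to 91.8) in the WT-labelled library, with 5431 Airn and 531 Igf2r UMIs, and 90.9% (90.2 to 91.6) in the KO-labelled library, with 5958 and 597. The share was 89.7% and 89.2% in FAP-like, 90.5% and 87.9% in MuSC-like and 90.3% and 89.0% in pericyte or smooth muscle-like nuclei. In macrophage-like nuclei, with 5 and 3 Igf2r UMIs, it was 78.3% (56.3 to 92.5) and 91.7% (77.5 to 98.2). These are shares of UMIs, not corrected for the length of the genes. Across the 9 classes and fibre types in both libraries, 18 values, the log2(CPM + 1) of the pair correlated with r = 0.95, the values being in part from the same library and from overlapping genes.

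**Figure D1:**
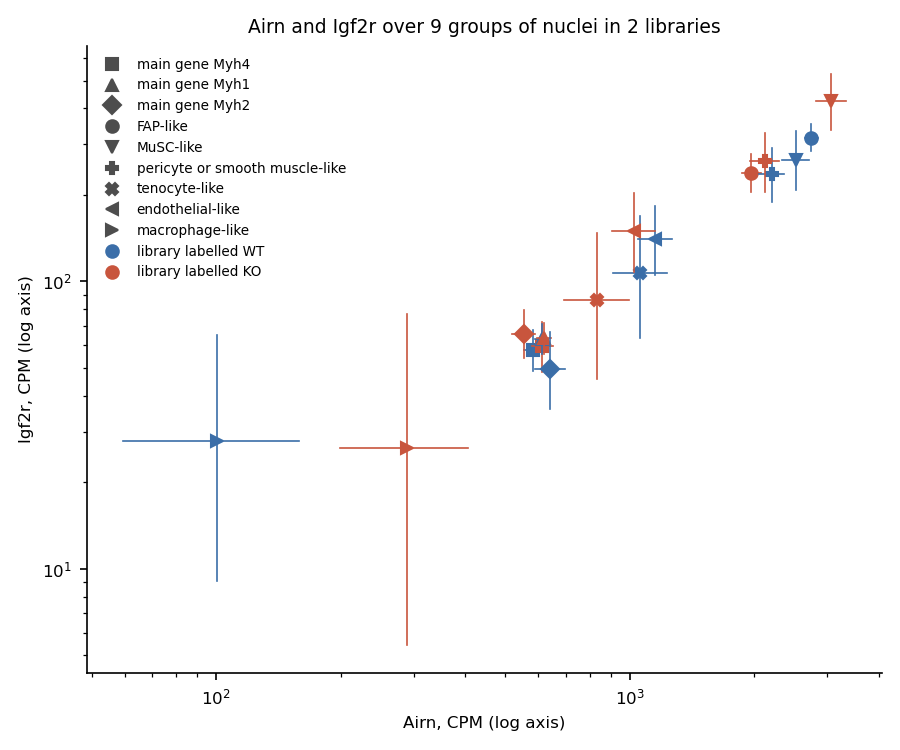
Igf2r against Airn in CPM on log axes, 1 point for each of 9 groups of nuclei in each library (marker shape for the group, blue for the WT-labelled library, red for the KO-labelled one), with 95% counting intervals. The fibre types sit together at 554 to 642 CPM of Airn, and FAP-, MuSC- and pericyte or smooth muscle-like nuclei at 1965 to 3069.5.

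Peg3 was highest in MuSC-like nuclei and followed the fibre type in myonuclei. MuSC-like nuclei held 4850.1 CPM (4594 to 5117) in the WT-labelled library and 5208 (4887 to 5543) in the KO-labelled library, in both above every other class. In nuclei with main gene Myh4, Myh1 and Myh2 it stood at 2777, 1188 and 951 CPM in the WT-labelled library and at 2730.0, 1389.9 and 982.4 CPM in the KO-labelled library. The order was the same in both libraries, and no step had an interval that held 0: Myh4 was above Myh1 by 1.22 (1.17 to 1.28) and 0.97 (0.92 to 1.03) on the log2 scale, and Myh1 above Myh2 by 0.32 (0.22 to 0.43) and 0.50 (0.42 to 0.58). FAP-like nuclei were at 1751 and 2046 CPM. Endothelial-like nuclei, at 109.6 and 76.9, and macrophage-like nuclei, at 55.7 and 149, were lowest. The myonuclear markers in these classes, taken as a share of myonuclear RNA, would correspond to 52.4 and 48.4 CPM of Peg3 in endothelial-like and 47.8 and 61.8 CPM in macrophage-like nuclei, and their part in the Peg3 level was not tested.

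Kcnq1ot1 shared the Myh4 maximum among fibre types, but the step was smaller in the KO-labelled library. Its CPM in the Myh4, Myh1 and Myh2 groups was 1359, 761 and 764 in the WT-labelled library and 807, 724 and 630.0 in the KO-labelled library. Myh4 was above Myh1 by 0.84 (0.77 to 0.90) and 0.16 (0.06 to 0.25) on the log2 scale. Nuclei without a main Myh gene, which are shallower (medians of 2452 and 2228 UMIs), were near the Myh4 group in the WT-labelled library at 1187 CPM and at 708 in the KO-labelled library. MuSC-like nuclei held 1124 (1002 to 1256) and 1762 (1578 to 1962) CPM, the highest of these values in the KO-labelled library but below the Myh4 group in the WT-labelled one. Pericyte or smooth muscle-, endothelial- and macrophage-like nuclei were at 132 to 369 CPM.

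Grb10 was mainly a gene of the non-muscle classes, with MuSC-like nuclei at 1704 (1553 to 1865) and 2270.4 (2061 to 2496) CPM and FAP-like nuclei at 851 and 1056 CPM, against 77.2 and 148 in myonuclei. In the WT-labelled library its fibre types ran upwards from Myh4 at 51.2 (42.7 to 60.9) through Myh1 at 80.6 (72.5 to 89.4) to Myh2 at 131 (108 to 157) CPM. In the KO-labelled library the Myh4 group was highest, at 166 (148 to 187), with Myh1 at 102 (92.3 to 112) and Myh2 at 134 (117 to 153) CPM. The step from Myh1 up to Myh2 was present in both libraries, whereas Myh4 changed place. In the KO-labelled library Myh4 stood above Myh2 by 0.31 (0.06 to 0.57) on the log2 scale, a direction that turned to -0.073 with nuclei thinned to 1000 UMIs. Nuclei without a main Myh gene were at 78.5 (61.8 to 98.4) CPM in the WT-labelled library, near the Myh1 group, and at 202 (184 to 222) CPM in the KO-labelled one, above the Myh1 and Myh2 groups. Thinned to 1000 UMIs, 4.46% (3.05 to 6.27) of Myh4 nuclei in the WT-labelled library and 11.3% (8.85 to 14.1) in the KO-labelled one had a Grb10 UMI, at median depths of 3004 and 2393.5 UMIs (unthinned 12.8% and 23.7%). In macrophage-like nuclei, which gave the lowest Grb10 level, it was 1.52% (0.04 to 8.16) and 0% (0 to 8.22) at median depths of 1390.5 and 1736 (unthinned 2% and 3.51%). Of the marker lists of classes rich in Grb10, those of MuSC (7 of 7 detected, 21.4 and 19.7 CPM in sum), FAP (8 of 8, 26.9 and 23.0), pericyte or smooth muscle (7 of 7, 293 and 246) and endothelial nuclei (8 of 8, 12.3 and 10.2) were no higher in KO-labelled than in WT-labelled myonuclei. The tenocyte list was higher (4 and 5 of 7, 4.87 and 8.52 CPM). The Schwann list, for which no class was named and no Grb10 level taken, was also higher (4 and 5 of 5, 15.2 and 23.1). The part of RNA from other classes in the myonuclear Grb10 level was not tested. A single KO-labelled nucleus with main gene Myh7 held 64 of the 1422 myonuclear Grb10 UMIs.

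The non-coding RNA H19 was found mainly in myonuclei. It had 139 UMIs in myonuclei of the WT-labelled library and 287 in those of the KO-labelled library (15.7 and 29.8 CPM), and at most 5 UMIs in any non-muscle class of either library. The largest CPM among those classes was 10.99 (2.27 to 32.1), in KO-labelled endothelial-like nuclei, from 3 UMIs. In some of these small classes the interval reached the myonuclear level, as in macrophage-like nuclei with 0 UMIs (0 to 20.5 and 0 to 32.4 CPM). By fibre type it stood at 11.6 (Myh4), 7.57 (Myh1) and 21.4 (Myh2) CPM in the WT-labelled library and at 23.7, 22.6 and 22.7 CPM in the KO-labelled library. The highest levels were in nuclei without a main Myh gene, 59.7 (45.2 to 77.3) and 54.7 (45.2 to 65.6) CPM, where the libraries overlapped. Over all myonuclei, H19 UMIs came from few nuclei, 78 of 2408 and 149 of 3088. H19 is the host of Mir675, which is shown with its seed, bases 2 to 8, in capitals, as the known small RNA product of this transcript that nuclear 3′ counts do not measure.
mmu-miR-675-5p, chr7:142577112-142577133, minus strand: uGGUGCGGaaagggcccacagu
mmu-miR-675-3p, chr7:142577078-142577099, minus strand: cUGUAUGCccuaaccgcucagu
Igf2, the growth factor next to H19, was sparse, with 33 and 53 UMIs in myonuclei. It too was highest among myonuclei in those without a main Myh gene, at 16.8 (9.57 to 27.2) and 14.96 (10.2 to 21.1) CPM, against 1.79 to 3.48 CPM in the fibre types with a main gene. Endothelial-like nuclei held 28.0 and 18.3 CPM from 11 and 5 UMIs.

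Asb4 was detected at 67.8 and 48.2 CPM in myonuclei. In the Myh4, Myh1 and Myh2 groups it was at 68.4, 69.5 and 60.9 CPM in the WT-labelled library and at 65.9, 45.3 and 43.1 CPM in the KO-labelled library. Non-muscle classes had 0 to 11 UMIs each, and the largest CPM among them was 50.1 (22.9 to 95.2) in the macrophage-like nuclei of the WT-labelled library, from 9 UMIs. The zinc finger gene Plagl1 had 12 and 20 UMIs in all myonuclei but 60 and 36 in FAP-like nuclei (54.8 and 50.6 CPM) and 18 and 21 in MuSC-like nuclei (65.2 and 111 CPM). Cdkn1c had 12 and 12 UMIs in myonuclei, 25 and 33 in FAP-like nuclei (22.8 and 46.4 CPM) and 7 and 17 in MuSC-like nuclei (25.4 and 89.97 CPM). Among fibre types, Cdkn1c had 8 and 7 UMIs in Myh4 nuclei and 1 and 3 in the more numerous Myh1 nuclei, log2 ratios of 3.85 (0.95 to 9.32) and 2.44 (0.31 to 5.02), whereas fibre type differences of Plagl1 were not detectable at this depth.

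**Figure D2:**
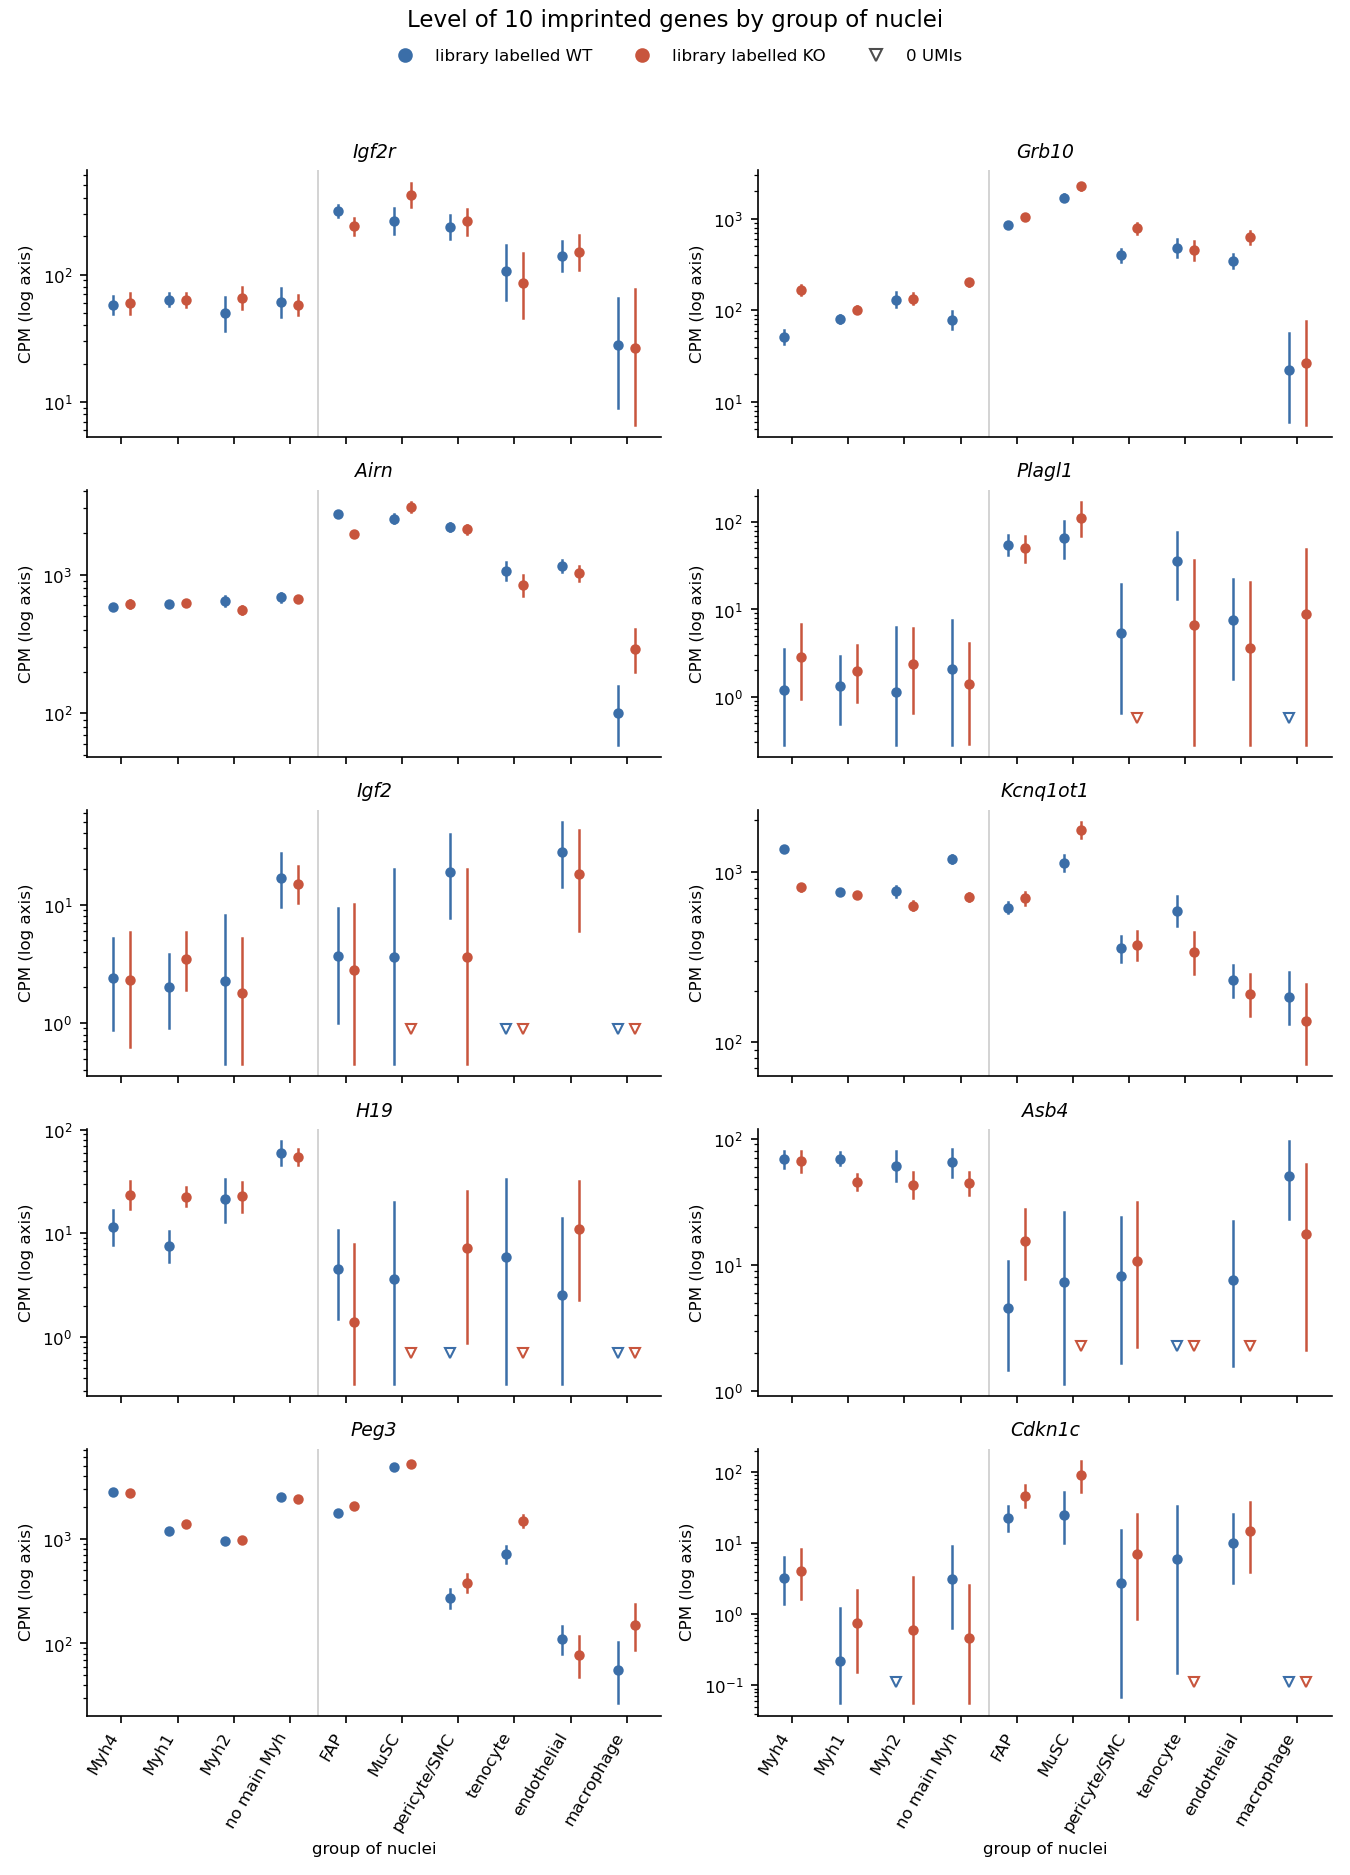
CPM on a log axis of each of the 10 genes in 4 groups of myonuclei (left of the line) and 6 non-muscle classes, blue for the WT-labelled library and red for the KO-labelled one. Bars are exact Poisson 95% intervals, cut at the lower edge of the axis, and open triangles mark groups with 0 UMIs. Grb10 in Myh4 nuclei is at 51.2 and 166 CPM in the 2 libraries, while Airn stays between 554 and 684 CPM over all myonuclear groups.

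The fibre type steps were read against those of all genes. Of 7 members with at least 200 UMIs over the fibre types, 2 (Peg3 and Kcnq1ot1) were above in Myh4 against Myh1 with both libraries' intervals on that side of 0, where 14.2% of 6487 genes were, and 0 were below, where 17.3% of genes were. The same 2 were above in Myh4 against Myh2, against 13.3% of genes, and 0 below, against 16.6%. Myh1 was above Myh2 for Peg3 alone, against 4.47% of genes, and below it for Grb10 alone, against 5.32%.

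Between the libraries, over all myonuclei, Grb10 and H19 were higher and Kcnq1ot1 and Asb4 lower in the KO-labelled library, while Igf2r, Airn and Peg3 were nearly level. Grb10 stood at 77.2 and 148 CPM, 0.94 apart on the log2 scale (0.80 to 1.07), and H19 at 15.7 and 29.8, 0.92 apart (0.62 to 1.22). Kcnq1ot1 went from 976 to 717 CPM, -0.45 (-0.49 to -0.40), and Asb4 from 67.8 to 48.2, -0.49 (-0.67 to -0.32). The log2 ratios of Igf2r, Airn and Peg3 were 0.04, 0.01 and 0.03. Igf2, Plagl1 and Cdkn1c, with intervals of -0.09 to 1.23, -0.49 to 1.78 and -1.41 to 1.16, could not be placed on either side. The median over 12443 genes with at least 20 UMIs was -0.12. Measured from that median, Grb10 stood at 1.06, H19 at 1.05, Peg3 at 0.15, Igf2r at 0.17, Airn at 0.13, Kcnq1ot1 at -0.32 and Asb4 at -0.37. On the CPM scale 0 of the 10 members were 2-fold higher, where 5.49% of genes were, and 0 were 2-fold lower, where 5.13% were. Grb10 and H19 fell just short of that fold on the CPM scale and just past it relative to the median of all genes. Leaving out, in each library, the nucleus with most UMIs of the gene gave 0.89 (0.75 to 1.02) for Grb10 and 0.97 for H19.

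The differences were uneven over fibre types. Grb10 had a log2 ratio of 1.70 (1.39 to 2.01) in Myh4 and 1.37 (1.01 to 1.74) in nuclei without a main gene, but 0.34 (0.13 to 0.55) in Myh1 and 0.03 (-0.30 to 0.37) in Myh2 nuclei. Kcnq1ot1 differed most in the same groups with the opposite sign, at -0.75 (-0.84 to -0.66) in Myh4 and -0.75 (-0.86 to -0.63) without a main gene. It was at -0.07 (-0.14 to 0.00) in Myh1 and -0.28 (-0.42 to -0.14) in Myh2, so it was nearest 0 in Myh1, whereas Grb10 was nearest 0 in Myh2. H19 was highest in ratio in Myh1, 1.58 (1.00 to 2.19), with 34 and 91 UMIs, and in Myh4, 1.03 (0.31 to 1.77), with 29 and 41. In nuclei without a main gene, where H19 was most abundant, its log2 ratio was -0.13 (-0.59 to 0.36). Asb4 was lower in Myh1, -0.62 (-0.89 to -0.35), and at -0.06 (-0.41 to 0.30) in Myh4. Peg3 and Airn, nearly level over all myonuclei, each differed in 1 group. Peg3 was at 0.23 (0.17 to 0.28) in Myh1 and Airn at -0.21 (-0.37 to -0.06) in Myh2, while their intervals in the other groups held 0. Nuclei without a main gene were 313 of 2408 WT-labelled and 799 of 3088 KO-labelled myonuclei. With these left out and the 3 main Myh gene groups weighted equally, the log2 ratio of H19 was 0.77 and that of Grb10 0.61.

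**Figure D3:**
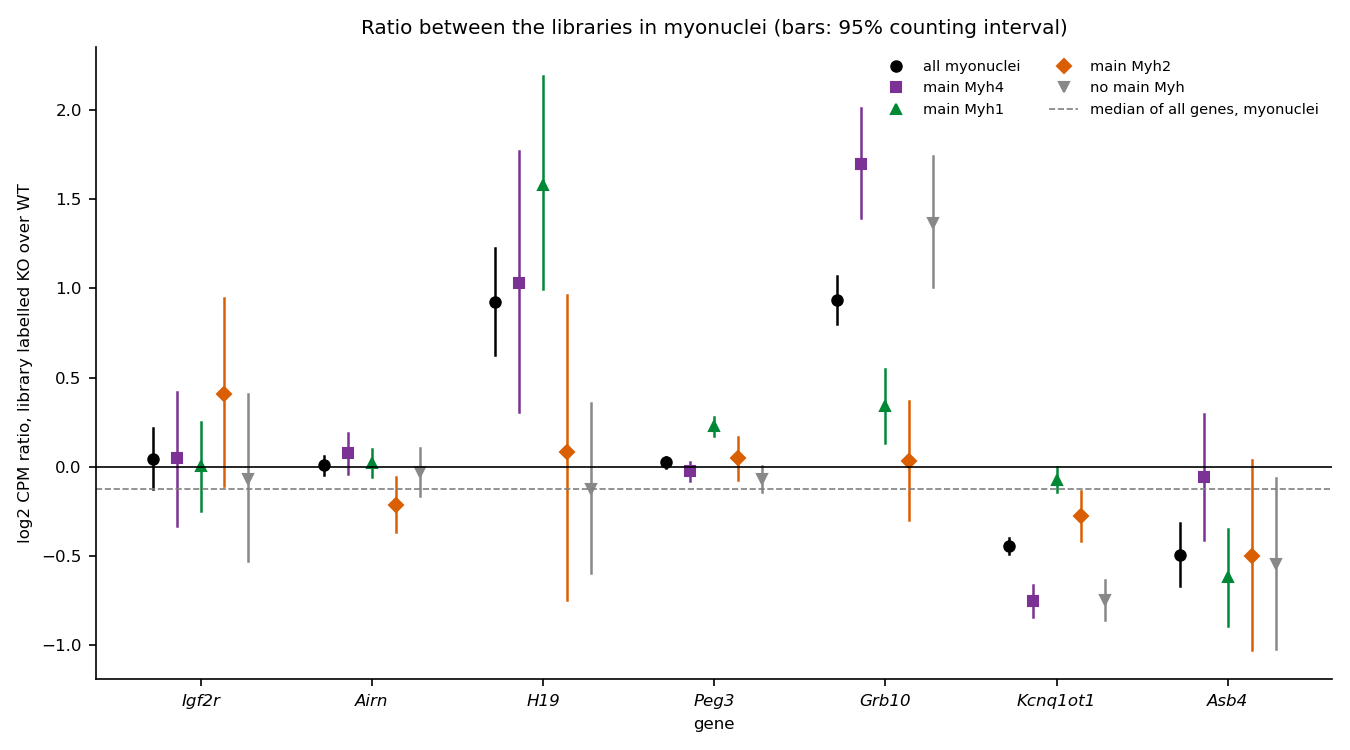
Log2 CPM ratio of the KO-labelled library over the WT-labelled one for the 7 members with at least 200 UMIs in myonuclei, in all myonuclei and in 4 groups by main Myh gene, with 95% counting intervals. The dashed line is the median of all genes, -0.12. Grb10 reaches 1.70 in Myh4 nuclei and Kcnq1ot1 -0.75, while both lie closer to 0 in Myh1 and Myh2 nuclei.

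In Myh4 nuclei, 2 of 7 members (H19 and Grb10) were 2-fold higher in the KO-labelled library, against 3.84% of all genes with at least 20 UMIs. In Myh1 nuclei it was 1 of 8 (H19), against 5.69%, and in nuclei without a main gene 1 of 8 (Grb10), against 5.76%. Of the members with at least 20 UMIs in a group, 0 were 2-fold lower in any of the fibre groups or classes. The share of all genes that were 2-fold lower was taken only over all myonuclei, at 5.13%. With so few members in a group and such a share, this count is not read as a result about the members. Bcl6 itself had a log2 ratio of 2.30 in Myh4, 1.46 in Myh1, 0.57 in Myh2 and 1.78 without a main gene, and its part in the result was not tested. Within the KO-labelled library, nuclei with and without a Meg3 UMI after thinning to 1000 UMIs were set side by side. Grb10 was at 136 CPM in the 2073 with Meg3 and at 176 CPM in the 939 without, a log2 ratio of -0.37 (-0.66 to -0.09). Kcnq1ot1 was at 732 and 696 CPM and Peg3 at 1898 and 1836, with ratios whose intervals held 0, and Airn at 658 and 572, a ratio of 0.20 (0.06 to 0.35). These sums pool the fibre groups, which differ in Meg3: 503 nuclei with and 91 without in Myh4, but 254 and 222 in Myh2. Within groups, Peg3 was lower with Meg3 in Myh1, -0.20 (-0.34 to -0.05), and without a main gene, -0.28 (-0.41 to -0.14). In Myh4 and Myh2 its intervals held 0.

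Outside muscle fibres, Grb10 was also higher in the KO-labelled library, from 347 to 626 CPM in endothelial-like nuclei, 0.85 (0.52 to 1.19), and from 400.1 to 792 CPM in pericyte or smooth muscle-like nuclei, 0.98 (0.68 to 1.30). Its log2 ratio was 0.31 (0.17 to 0.45) in FAP-like and 0.41 (0.22 to 0.61) in MuSC-like nuclei, and -0.08 (-0.56 to 0.40) in tenocyte-like nuclei. Kcnq1ot1, which was lower in Myh4 nuclei, was higher in MuSC-like nuclei by 0.65 (0.42 to 0.88). Airn and Igf2r moved in one direction within each of FAP-like nuclei, -0.48 (-0.57 to -0.39) and -0.41 (-0.68 to -0.14), and MuSC-like nuclei, 0.28 (0.12 to 0.44) and 0.68 (0.20 to 1.16). With each nucleus classed by its own marker UMIs, this held in FAP-like but not in MuSC-like nuclei. In the latter, Airn then went from 2385 to 2223 CPM and Igf2r from 262 to 325 CPM. Cdkn1c passed 2-fold in FAP-like nuclei, 1.02 (0.23 to 1.83), as 1 of 7 members against 2.81% of genes, and in MuSC-like nuclei, 1.83 (0.48 to 3.34) on 7 and 17 UMIs, as 1 of 7 against 3.92%. With nuclei classed by their own marker UMIs, FAP-like Cdkn1c was at 23.3 and 36.3 CPM, short of 2-fold. The MuSC-like values were then 18.3 and 59.7 CPM, from 3 and 9 UMIs. Peg3 passed 2-fold in tenocyte-like nuclei, from 709 to 1477 CPM, 1.06 (0.73 to 1.39), as 1 of 5 members against 4.82%. In macrophage-like nuclei 2 of 3 members passed it, Airn with 18 and 33 UMIs and Peg3 with 10 and 17, against 4.44% of genes. These UMIs came from few nuclei, for Airn 13 of 100 and 10 of 57 and for Peg3 6 of 100 and 6 of 57. Thinned to 1000 UMIs, the share of macrophage-like nuclei with an Airn UMI was 9.09% (3.41 to 18.7) and 11.6% (3.89 to 25.1), with intervals that overlapped. With nuclei classed by their own marker UMIs, Airn in macrophage-like nuclei was at 89.1 and 159 CPM, short of 2-fold. The median log2 ratio over all genes was -0.08 in FAP-like, -0.05 in MuSC-like and -0.03 in tenocyte-like nuclei.

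Genes next to the members did not all share their direction. Usp29, a ubiquitin protease gene that starts back to back with Peg3, went from 13.6 to 30.3 CPM in myonuclei, 1.16 (0.85 to 1.48), and Zim1 from 41.9 to 62.9, 0.59 (0.40 to 0.78), beside 0.03 for Peg3. Cobl, next to Grb10, went the other way, from 86.9 to 44.0 CPM, -0.98 (-1.16 to -0.81). At the Asb4 locus Sgce, a sarcoglycan gene, and Ppp1r9a went from 14.04 to 45.3 CPM (1.69) and from 30.6 to 84.7 CPM (1.47), Pon2, Pon3 and Casd1 had log2 ratios of 0.51, 0.36 and 0.42, Dync1i1 0.02 and the kinase gene Pdk4 -0.30, beside -0.49 for Asb4. Beside H19, Tnnt3, a fast troponin gene, stood at -0.40, Nctc1 at -0.16 and Lsp1 at 0.82. Tcp1 by Igf2r was at -0.32, Nap1l4 and Cars by Cdkn1c at -0.12 and 0.29, and Phactr2 and Utrn by Plagl1 at -0.26 and 0.56.

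Of 64 imprinted genes listed besides the members, 62 were in the files and 34 had at least 20 UMIs in myonuclei. Their median log2 ratio was 0.15, against -0.12 for all genes, with 25 above and 9 below the median of all genes. Of the 34, 6 were 2-fold higher, against 5.49% of all genes with at least 20 UMIs, and 0 were 2-fold lower, against 5.13%. The 34 take in neighbours already named above: Usp29, Zim1, Sgce, Ppp1r9a, Pon2, Pon3, Casd1, Cobl, Phactr2 and Nap1l4. They are thus not a set of genes separate from the neighbours. The highest were Ano1 at 2.36 (from 5 and 28 UMIs), Ampd3, an AMP deaminase gene, at 1.73, Sgce at 1.69, Ppp1r9a at 1.47 and Usp29 at 1.16. The lowest were Cobl at -0.98, Impact at -0.78, Gab1, an adaptor of growth factor receptors, at -0.56, H13 at -0.46 and Trappc9 at -0.40. The 10 members lay within this range, from -0.49 for Asb4 to 0.94 for Grb10.

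**Figure D4:**
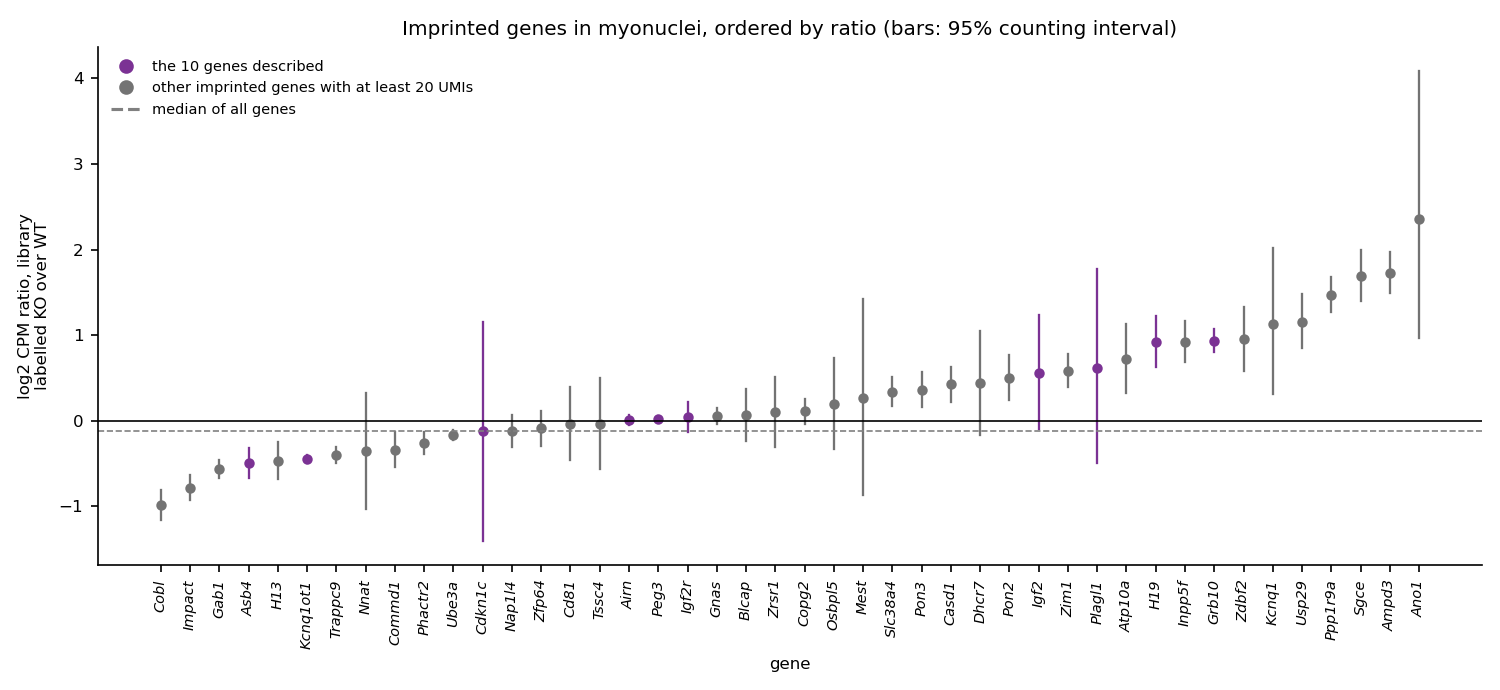
Log2 CPM ratio of the KO-labelled library over the WT-labelled one in myonuclei for the 10 members (purple) and the 34 other imprinted genes with at least 20 UMIs (grey), ordered by ratio, with 95% counting intervals. The dashed line is the median of all genes, -0.12, which 25 of the 34 exceed.

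Over the 18 values, the gene whose log2(CPM + 1) most resembled that of Igf2r among 8216 candidates was Airn (r = 0.95), followed by Grb10 (0.94) and the transcription factor gene Nfia (0.91). Airn was nearest to Igf2r, Nectin3 (0.94) and Rgmb (0.94), and Grb10 to Igf2r (0.94), Nectin3 (0.94) and Nfia (0.93). Peg3 was nearest to Lrig1 (0.92), Rai2 (0.92) and Kcnq1ot1 (0.91), and Kcnq1ot1 to Peg3 (0.91), Dcaf8 (0.90) and Dhtkd1 (0.90). H19 was nearest to Lrrc69 (0.91), Repin1 (0.89) and Emc7 (0.87), and Asb4 to Psmc2 (0.92), Pcyt1a (0.88) and Gm40123 (0.86). H19 and Igf2r, by contrast, had r = -0.18, and Grb10 and Asb4 r = -0.68. The 18 values share 2 libraries and differ in depth, so these correlations are descriptions.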

How the data were processed

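Nuclear RNA of TA muscle was measured in 1 droplet library for each genotype. The authors deposited gene by barcode matrices of UMI counts, made per the labels with Cell Ranger 7.0.0 on mm10; Seurat 5.0.3 is also named there. The kit is given differently in the labels and the study's methods, and intronic counting and strand are not stated in the sources used here. Barcodes with 200 to 5000 genes and at most 5% mitochondrial UMIs were kept, and Scrublet (scanpy 1.11.5) scores removed the top 0.8% for each 1000 barcodes, 115 and 134, since its own threshold marked only 8 and 4. The libraries share 6 barcode sequences. Clusters were made with Seurat 5.3.0 in R 4.3.3 (2000 variable genes, 30 components, resolution 0.5) after leaving out the 10 genes and 405 that differed 2-fold between libraries. The 2 unnamed clusters and a small lymphatic endothelial-like cluster (11 and 6 nuclei) stayed out of the classes. Analyses used Python 3.11.15 with pandas 2.3.3, scipy 1.17.1 and numpy 2.4.6, while edgeR 4.0.16 served only for an alternative scaling.

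UMIs were summed over a class and divided by all its UMIs (CPM), with exact Poisson intervals. Log2 ratios carry an exact interval conditional on the gene's total, and shares exact Clopper-Pearson intervals. With 1 library for each genotype no p-value was computed. Simulated on 12449 genes for the KO over WT ratio in myonuclei, with 200 changed genes and 20 draws, intervals covered the true log2 ratio in 95.5% (-2), 95.9% (-1), 96.4% (1) and 96.7% (2) of changed genes. The draws were independent Poisson counts, which the intervals assume. This checks the calculation only, since uneven counts between nuclei or animals were not simulated. The members and gene lists were chosen with earlier results of these data known. Text names every member, the 5 highest and 5 lowest other imprinted genes with at least 20 UMIs, every listed neighbour with at least 200, and the 3 genes most like each member with at least 200. Alternatives changed doublet removal, filters, class assignment, depth, weighting, scaling, the nuclei used and the minimum of UMIs.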

Additional observations from a re-analysis of the deposited data

Results flagged for a closer look

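The members named here had log2 ratios of the KO-labelled over the WT-labelled library, relative to the median of all genes in the class, on opposite sides of 0 in 2 groups of nuclei, with both intervals clear of 0. The differences between groups were not tested. Igf2r was at 0.73 in MuSC-like and -0.32 in FAP-like nuclei, and Airn at 1.57 in macrophage-like and -0.40 in FAP-like nuclei. The macrophage-like value rests on 18 UMIs in 13 of 100 and 33 in 10 of 57 nuclei, and the shares of nuclei with an Airn UMI after thinning, 9.09% and 11.6%, had overlapping intervals. Kcnq1ot1 was at 0.70 in MuSC-like and -0.78 in tenocyte-like nuclei. Asb4 was at 1.84 in FAP-like nuclei, from 5 and 11 UMIs, and at -0.50 in Myh1 nuclei.

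The fibre type order of Grb10 also turned between the libraries. Its log2 ratio of Myh4 over Myh1 was -0.65 in the WT-labelled and 0.71 in the KO-labelled library, and that of Myh4 over Myh2 was -1.35 and 0.31. These differences were not tested either.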

How the results depend on the processing

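No paired analysis was possible because each genotype is 1 library and no result comes from a test. The number of members 2-fold higher in KO-labelled myonuclei, 0 by CPM, became 1 with nuclei thinned to 1000 UMIs or with the mean of CPM over nuclei, and 2 with edgeR's TMM or the median of ratios, which shift the KO over WT scale by -0.13 and -0.12 (log2). The median of the other imprinted genes, 0.15, became 0.28 with either scaling, -0.13 over all nuclei and 0.26 with no minimum of UMIs. With thinning, Grb10 in the KO-labelled library turned from 0.31 to -0.073 for Myh4 over Myh2. Grb10 (0.31 to 1.08, lowest over all nuclei, 0.64 with nuclei assigned by marker UMIs) and H19 (0.77 to 1.05) were higher, and Kcnq1ot1 (-0.45 to -0.32) and Asb4 (-0.51 to -0.33) lower, in KO-labelled nuclei under every alternative run. Airn ranged from -0.24 over all nuclei to 0.13 and Igf2r from -0.20 to 0.18. Of the members' KO over WT ratios under alternatives, 115 stayed within the interval of the value reported and 15 left it. Of their fibre type ratios 239 stayed and 31 left it, besides the 1 of Grb10 that turned although its interval had left out 0. Fibre type ratios whose interval held 0 also changed sign in places. For H19, Myh4 over Myh1 ranged from -0.85 to 0.93 in the WT-labelled library and from -1.03 to 0.34 in the KO-labelled one. Leaving out the nucleus with most UMIs of a gene was chosen after seeing the data. Sums of few UMIs limit Igf2, Plagl1 and Cdkn1c, whose ratios took both signs, and animals were pooled, so animal differences cannot be told apart from genotype.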

Other observations

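The nuclei at the myotendinous junction, named from their markers, held 2 Grb10 UMIs in 25 WT-labelled and 20 in 32 KO-labelled nuclei (18.3 and 177 CPM), a log2 ratio of 3.28 (1.24 to 6.42). At the same junction Peg3 was at 2019.6 and 1597 CPM, -0.34 (-0.63 to -0.05). These small groups were counted within the myonuclei.

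Within KO-labelled nuclei without a main Myh gene, Grb10 was at 175 CPM in those with a Meg3 UMI and 286 CPM in those without, after thinning to 1000 UMIs. In Myh4 nuclei the same values were 153 and 154 CPM.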
